A study of Mus musculus with 4 samples.

Results

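HOX genes encode homeodomain transcription factors that set position along the body axis, and in the mouse they lie in the clusters Hoxa, Hoxb, Hoxc and Hoxd on chromosomes 6, 11, 15 and 2. The members are all gene models of the duct libraries whose name is Hox, a cluster letter and a paralogue number, which gave 39 of 52535 models. The genes were compared in 2 libraries labelled Lats1/2 KO and 2 wild-type (WT) libraries of C57BL/6 mouse pancreas, described as ductal cells. The KO mice carried homozygous floxed Lats1 and Lats2 (Lats1fl/fl, Lats2fl/fl) with Sox9-CreER, a Cre recombinase that works after tamoxifen and only where the Sox9 promoter is active. The WT mice are given as wild type with no allele named. The sources used here do not give age, sex, the time after Cre induction or how cells were isolated. Nor do they say whether replicates are different mice, so the p-values cover only the spread among the 4 libraries, which may be technical. LATS1 and LATS2 are the Hippo pathway kinases that hold back the co-activators YAP and TAZ. The comparison asks what differs between these libraries, described as ductal cells, when both kinases are targeted, and here what happens to the HOX genes. Markers of other cell types, given below, also differed between the groups.

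Genes with low paralogue numbers (anterior genes) are switched on first and nearest the head in the embryo, and those with high numbers (posterior genes) later and nearer the tail. HOX proteins bind DNA with TALE cofactors of the PBX and MEIS families, retinoic acid induces anterior HOX genes, and Polycomb and trithorax proteins keep them off or on. In gut and its derivatives HOX genes are best known from the mesenchyme around the epithelium, and the duct and islet factor Pdx1 belongs to the related ParaHox genes.

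Few HOX reads were present, and none of the tested HOX genes rose. Of the 39 genes, 28 had a count in some library and 9 passed the filter on low counts. Hoxa7 and Hoxc8 were lower in KO at a Benjamini-Hochberg adjusted p under 0.05 (edgeR's quasi-likelihood test over 13990 genes), about 4.86-fold and 4.0-fold, and 0 were higher. Both called genes passed the filter only through WT. At an unadjusted p under 0.05, 3 were lower and 0 higher. The share of all genes at an unadjusted p was not computed, so such counts, here and below, stand without a background. By adjusted p, DESeq2 called Hoxa7 lower and 0 higher. Over all genes tested, 42.2% were called changed, 20.2% lower and 22.0% higher (17.5% lower by DESeq2), so 2 of 9 lower is close to the background. The calls changed with the libraries and settings used. Without KO 1 and without KO 2, 1 and 0 HOX genes were called lower (13.1% and 12.4% of all genes), and without WT 1 and without WT 2, 0 and 3 (14.7% and 15.5% of all genes). With upper quartile scaling 3 were called lower (25.7% of all genes), Hoxd8 among them, and with a filter of at least 1 CPM in 2 libraries 3 were (18.7% of all genes), Hoxa2 among them.

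Libraries held 5082636 and 5925601 counts in KO 1 and KO 2, against 3566387 and 4735183 in WT 1 and WT 2. Levels are TMM-scaled CPM, which set each count against the size of its library, and a floor of 3 counts equals 0.604 and 0.486 CPM in KO 1 and KO 2 and 0.824 and 0.674 CPM in WT 1 and WT 2. Lats1 was at 70.0 and 79.2 CPM in KO, against 50.8 and 65.6 CPM in WT, and Lats2 at 163 and 121 CPM in KO, against 114 and 102 CPM in WT. Neither was lower, and counts over whole gene models do not check the loss of single exons, so the groups are named by their labels. Of 13 duct markers 9 rose and 0 fell, among them Sox9 at 350.0 and 453 CPM in KO, against 84.1 and 109 CPM in WT.

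Other cell types moved too. Fibroblast and stellate markers rose in 10 of 14 genes and fell in 2, with a summed level of 11689 to 17515 CPM in KO and 4103 to 4621 CPM in WT. Smooth muscle markers fell in 8 of 8 (590 to 1008 CPM in KO, 3336 to 4042 CPM in WT), neural and Schwann markers in 9 of 9 (24.8 to 30.4 CPM in KO, 202 to 250 CPM in WT) and endothelial markers in 7 of 10 (712 to 777 CPM in KO, 1607 to 1690 CPM in WT). T and NK cell markers fell in 12 of 12 (27.5 to 60.8 CPM in KO, 1425 to 1512 CPM in WT) and B cell markers in 9 of 9 (74.0 to 192 CPM in KO, 2553 to 2618 CPM in WT), while macrophage markers rose in 12 of 12 (4730 to 6562 CPM in KO, 641 to 676 CPM in WT). Mesothelial markers rose in 3 of 7 tested and fell in 1 (1092 to 1243 CPM in KO, 269 to 333 CPM in WT). Krt19, which is also on the duct list, was among the mesothelial rises and made up most of these sums. It was at 913 and 807 CPM in KO 1 and KO 2, against 309 and 252 CPM in WT 1 and WT 2. The other mesothelial rises were those of Msln and Wt1. Msln was at 285 and 266 CPM in KO, against 4.95 and 8.32 CPM in WT, and Wt1 is also among the mesenchymal factors described at the end. Islet markers rose in 1 of 8 and fell in 3 (169 to 282 CPM in KO, 1148 to 2180 CPM in WT). Acinar markers stood at 169 and 3923 CPM in KO 1 and KO 2, against 55512 and 99138 CPM in WT 1 and WT 2, and 1 of 11 tested passed, as lower. No gene of these marker lists was at 0 in either group. In such bulk samples fewer cells of a type and less RNA per cell cannot be told apart, and the part of these cell types in the HOX values was not tested.

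Hoxa7 (mm10, chromosome 6, 52214491 to 52221854, minus strand), which takes part in shaping the vertebrae in mice, had 10 and 4 counts in KO 1 and KO 2, against 25 and 26 counts in WT 1 and WT 2. That is 2.01 and 0.647 CPM in KO, against 6.87 and 5.84 CPM in WT. Both KO libraries lay below both WT libraries, with KO 2 near its floor. The means were 1.33 ± 0.965 CPM in KO and 6.36 ± 0.726 CPM in WT (SD, n = 2 each), a log2 change of -2.28 ± 0.59 SE (edgeR adjusted p = 0.0146). Leaving out WT 1 gave -2.15 and leaving out KO 2 gave -1.61, neither past the threshold (edgeR, adjusted p = 0.0539 and 0.111). Leaving out KO 1 gave -3.24, which passed (edgeR, adjusted p = 0.0212).

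Hoxc8 (chromosome 15, 102990607 to 102994111, plus strand), known in mice for patterning the thoracic skeleton and brachial motor neurons, had 4 and 4 counts in KO, against 10 and 14 counts in WT. Its level was 0.805 and 0.647 CPM in KO 1 and KO 2, against 2.75 and 3.15 CPM in WT 1 and WT 2. The groups did not overlap, and both KO values were little above the floor. The log2 change was -2.0 ± 0.62 SE (edgeR adjusted p = 0.0299). Leaving out any single library gave log2 changes of -2.14 to -1.81, none past the threshold (edgeR adjusted p-values of 0.118 to 0.24), and DESeq2 gave an adjusted p of 0.14.

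The homeobox is much alike among paralogues, and the deposited counts do not say how reads that match several genes were treated, so values of close paralogues carry that uncertainty. Among gene models of the Hoxa interval, the antisense Hoxaas3 shares 586 exon bases with Hoxa7, which is 20.4% of the Hoxa7 exons, and it had 0 counts in every library.

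Hoxa3, Hoxa4 and Hoxa5, the other tested genes of the cluster, did not pass. Hoxa6 and Hoxa9, which flank Hoxa7, were under the filter with fewer reads in KO, and their counts are given with the genes under the filter. Hoxa5, which patterns the neck and lung region in mice, was the HOX gene with the most counts, 44 and 59 in KO 1 and KO 2, against 49 and 34 in WT 1 and WT 2. At 8.85 and 9.55 CPM in KO, against 13.5 and 7.64 CPM in WT, the KO values lay between those of WT, and the log2 change was -0.18 ± 0.37 SE (edgeR adjusted p = 0.716). Without WT 1 it was 0.28 and without WT 2 -0.54. Hoxa3, needed for thymus and parathyroid in mice, had 27 and 27 counts in KO, against 15 and 22 in WT (5.43 and 4.37 CPM in KO, 4.12 and 4.94 CPM in WT), a log2 change of 0.10 ± 0.43 SE (edgeR adjusted p = 0.87). Its sign turned with upper quartile scaling (-0.09) and without WT 1 or KO 1. Hoxa4, which patterns neck vertebrae, was at 2.62 and 3.24 CPM in KO, against 2.75 and 2.25 CPM in WT (log2 change 0.24 ± 0.51 SE, edgeR adjusted p = 0.736). The SEs leave changes of either sign possible for these 3 genes. The Hoxa3 model spans its neighbours and shares 27.1% of its exon bases with 5 other models, most of them antisense.

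Within the Hoxa cluster, genes 6 to 10 took a smaller share of the reads of genes 3 to 10 in KO. Most reads of genes 6 to 10 were those of Hoxa7, with 10 and 4 counts in KO 1 and KO 2 and 25 and 26 in WT 1 and WT 2. The share is therefore not separate from the Hoxa7 change. Hoxa6, Hoxa7, Hoxa9 and Hoxa10 together had 11 of 95 counts in KO 1 (11.6%, exact binomial 95% interval 5.92% to 19.8%) and 5 of 111 in KO 2 (4.5%, 1.48% to 10.2%). In WT 1 they had 30 of 104 (28.8%, 20.4% to 38.6%) and in WT 2 39 of 105 (37.1%, 27.9% to 47.1%). The groups did not overlap, and with 2 against 2 libraries no permutation test can reach a p under 0.05, so the split was not tested. It was chosen after the values were seen. These intervals, like all floors and count ratios here, cover counting error only.

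The promoters of Hoxa7, which was called lower, and of Hoxa5, the HOX gene with the most reads, are shown. The difference between both genes' changes was not tested. They are the 250 bases before and 50 after the start of the gene in RefSeq (GRCm38.p6), chr6:52218524-52218823 for Hoxa7 and chr6:52204538-52204837 for Hoxa5, both on the minus strand, and capitals mark CG dinucleotides. The RefSeq start of Hoxa7 lies inside the counted gene model, not at its 5′ end, while that of Hoxa5 is the 5′ end of its model.
Hoxa7: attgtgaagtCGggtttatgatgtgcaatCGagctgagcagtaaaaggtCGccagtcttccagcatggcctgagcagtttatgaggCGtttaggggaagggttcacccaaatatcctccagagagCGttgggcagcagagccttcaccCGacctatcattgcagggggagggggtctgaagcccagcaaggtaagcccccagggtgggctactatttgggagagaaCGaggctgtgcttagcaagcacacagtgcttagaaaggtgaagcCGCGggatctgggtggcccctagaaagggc
Hoxa5: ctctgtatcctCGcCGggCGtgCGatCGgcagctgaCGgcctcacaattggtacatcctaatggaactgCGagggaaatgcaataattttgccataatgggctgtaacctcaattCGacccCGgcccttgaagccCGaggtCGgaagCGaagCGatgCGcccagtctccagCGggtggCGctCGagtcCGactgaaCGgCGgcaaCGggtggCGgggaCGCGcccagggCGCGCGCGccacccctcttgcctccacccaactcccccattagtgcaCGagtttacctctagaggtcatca
The Hoxa7 stretch holds 9 CG pairs and the Hoxa5 stretch 29, beside a median of 14.5 over the 24 HOX promoters listed (22 genes) and 7 over all 32544 promoters. Neither holds TGANTCA (the AP-1 motif), GGAATG (the TEAD motif) or TGATTNAT (a PBX-HOX motif) on either strand. These letters occur in 7.79%, 14.6% and 3.23% of all promoters of that length. Among HOX promoters, 1 held the AP-1 letters (Hoxd11), 2 the TEAD letters (Hoxa9, Hoxd10) and 2 the PBX-HOX letters (Hoxa2, Hoxd11).

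**Figure D1:**
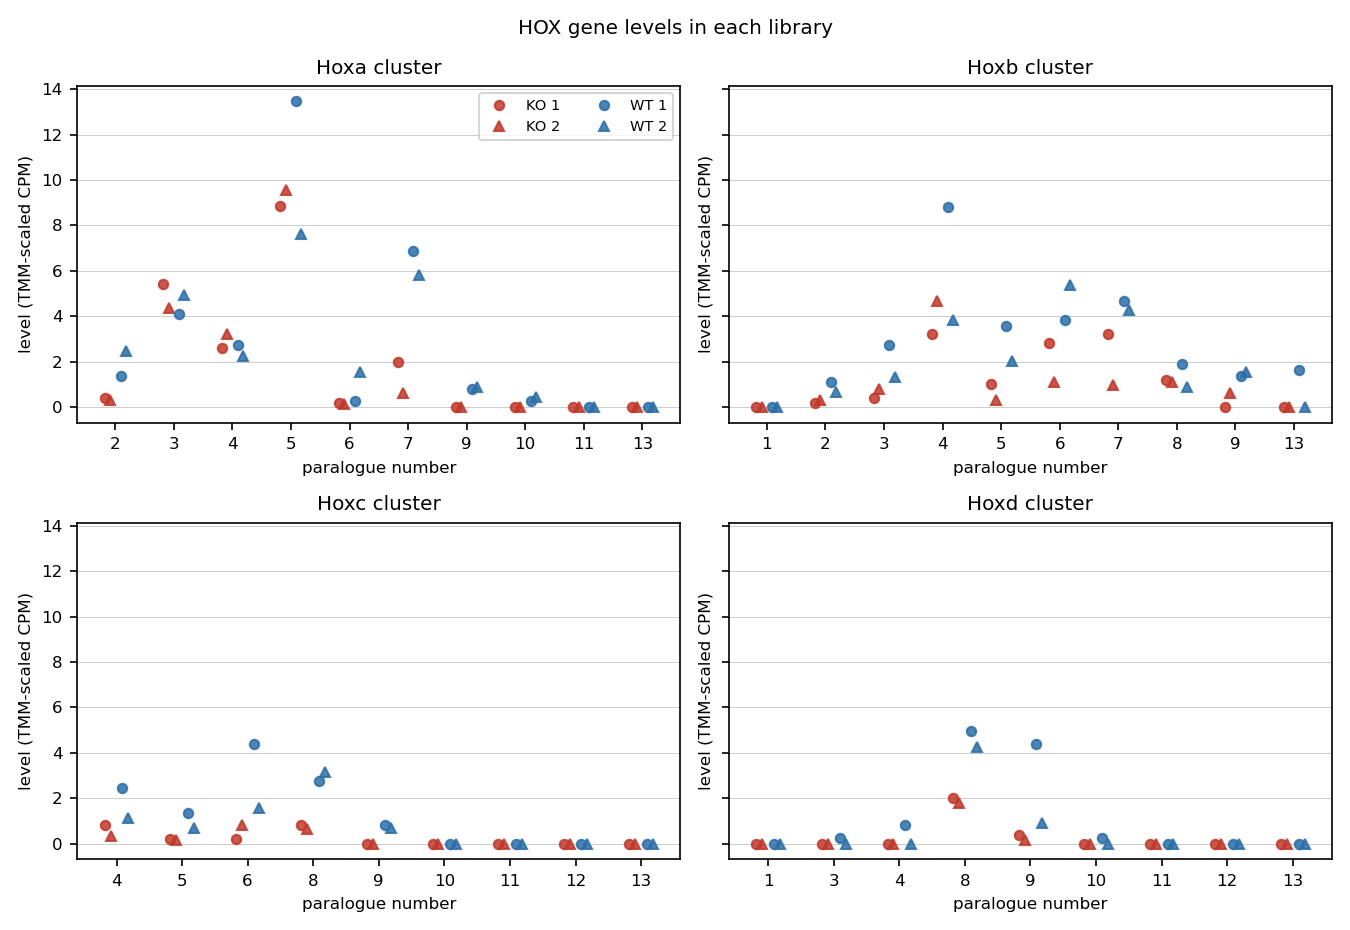
Level in TMM-scaled CPM (vertical axis) of HOX genes by paralogue number (horizontal axis) in the Hoxa, Hoxb, Hoxc and Hoxd clusters, with points for KO 1 and KO 2 (red) and WT 1 and WT 2 (blue). Hoxa5 stands highest at 7.64 to 13.5 CPM, Hoxa7 is at 0.647 and 2.01 CPM in KO and 5.84 and 6.87 CPM in WT, and genes 10 to 13 lie at or near 0 except Hoxb13 in WT 1.

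Of the Hoxb cluster, Hoxb4, Hoxb6 and Hoxb7 were tested and none passed. Hoxb4, studied for its effect on blood stem cells, had 16 and 29 counts in KO, against 32 and 17 in WT, with overlapping groups (3.22 and 4.69 CPM in KO, 8.79 and 3.82 CPM in WT, log2 change -0.64 ± 0.51 SE, edgeR adjusted p = 0.346). Without WT 1 it was 0.07. Hoxb6, expressed in lateral plate mesoderm of mouse embryos, was at 2.82 and 1.13 CPM in KO, against 3.85 and 5.39 CPM in WT (log2 change -1.26 ± 0.57 SE, edgeR adjusted p = 0.111). Hoxb7, a paralogue of Hoxa7, was at 3.22 and 0.971 CPM in KO, against 4.67 and 4.27 CPM in WT (log2 change -1.12 ± 0.61 SE, edgeR adjusted p = 0.173). For Hoxb6 and Hoxb7 both KO libraries lay below both WT libraries, with KO 2 the lowest. Without KO 2 their log2 changes were -0.68 and -0.44, and without KO 1 they were -2.0 and -2.17.

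Hoxd8, the tested gene of the Hoxd cluster, had 10 and 11 counts in KO, against 18 and 19 in WT. Its level of 2.01 and 1.78 CPM in KO, against 4.95 and 4.27 CPM in WT, did not overlap between groups, but the change did not pass (log2 change -1.27 ± 0.49 SE, edgeR adjusted p = 0.0656). With upper quartile scaling it passed (-1.47, edgeR adjusted p = 0.0395). In 5 of the 9 tested genes, Hoxa7, Hoxb6, Hoxb7, Hoxc8 and Hoxd8, both KO libraries lay below both WT libraries, and in 0 both lay above, with a background of 36.8% below and 37.4% above over all genes tested. The filter asked for about 2.04 CPM in 2 libraries. In these 5 genes both WT libraries reached it, but not both KO libraries. Hoxb6 and Hoxb7 reached it in 1 KO library each, and Hoxa7, Hoxc8 and Hoxd8 in 0. Both libraries of both groups reached it in 4 genes (Hoxa3, Hoxa4, Hoxa5 and Hoxb4). The count of 5 genes and the median log2 change of the 9 genes, -1.12 beside -0.01 over all genes tested, are therefore descriptions that lean towards lower values in KO.

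**Figure D2:**
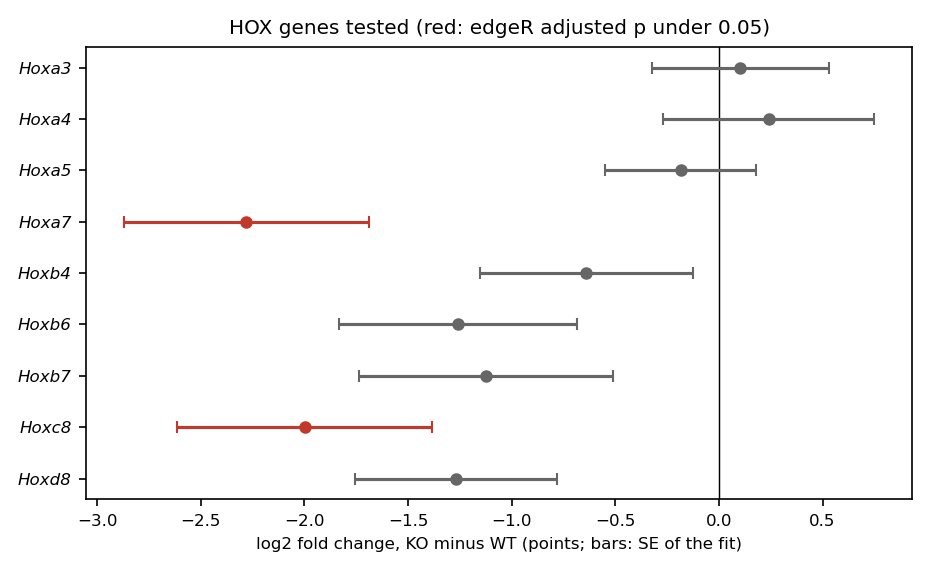
Log2 fold change, KO minus WT (horizontal axis; points, with bars for the SE of the fit), of the 9 HOX genes that passed the filter on low counts, 1 gene per row. Hoxa7 at -2.28 and Hoxc8 at -2.0 (red) passed at an adjusted p under 0.05, and Hoxa3, Hoxa4 and Hoxa5 lie within 1 SE of 0.

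To compare the 9 tested genes with each other, CPM was divided by exon length. In KO their order was Hoxa5 (4.90 CPM per kb), Hoxa4 (1.84), Hoxb4 (1.54), Hoxb7 (1.36), Hoxb6 (1.01), Hoxa3 (0.815), Hoxd8 (0.691), Hoxa7 (0.462) and Hoxc8 (0.256). In WT it was Hoxa5 (5.62 CPM per kb), Hoxb7 (2.90), Hoxb4 (2.46), Hoxb6 (2.35), Hoxa7 (2.21), Hoxd8 (1.68), Hoxa4 (1.57), Hoxc8 (1.04) and Hoxa3 (0.754). Hoxa5 led in both groups. Neighbours between Hoxb7 and Hoxa7 in the WT order differ by less than the spread of Hoxb4 between WT 1 and WT 2 (3.43 and 1.49 CPM per kb).

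The 19 genes with counts that fell under the filter had 1 to 29 counts over the 4 libraries, next to 32 for Hoxc8, the lowest gene that passed it. Their pooled CPM was lower in KO for 19 of 19, while 61.0% of all gene models under the filter with a count were lower in KO. Of 17 with at least 3 counts, 17 had a lower pooled CPM in KO. Over all gene models under the filter with at least 3 counts the share was 65.5%. In 14 of the 17 both KO libraries lay below both WT libraries, beside 32.6% of such gene models. These gene models were not matched to the HOX genes in read number. Read numbers are small, and ratios of pooled counts follow with their exact 95% intervals.

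Hoxc6 had 1 and 5 counts in KO, against 16 and 7 in WT, a ratio of KO to WT of 0.189 (0.063 to 0.478). Hoxb5 had 5 and 2 counts in KO, against 13 and 9 in WT, a ratio of 0.231 (0.0833 to 0.56). Hoxa2, which gives the second branchial arch its identity in mice, had 2 and 2 counts in KO, against 5 and 11 in WT, a ratio of 0.181 (0.0441 to 0.562), and with the filter of at least 1 CPM in 2 libraries its log2 change was -2.32 (edgeR adjusted p = 0.0491). In each of these genes both KO libraries were below both WT libraries in CPM. Hoxb8 was the gene under the filter nearest to equal, with 6 and 7 counts in KO, against 7 and 4 in WT, a ratio of 0.858 (0.354 to 2.11). When no filter was applied, edgeR called Hoxa7, Hoxc6 (log2 change -2.36, edgeR adjusted p = 0.0437) and Hoxd9 (-3.07, edgeR adjusted p = 0.0204) lower, where 12.2% of all genes were called lower. Hoxc8 was not called then (-1.92, edgeR adjusted p = 0.0959).

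The posterior genes, numbers 9 to 13, had the fewest reads. Hoxd9, a limb and trunk gene, had 2 and 1 counts in KO, against 16 and 4 in WT, a ratio of 0.109 (0.0207 to 0.367), and most of its reads came from WT 1. Hoxb9 had 0 and 4 counts in KO, against 5 and 7 in WT (ratio 0.242, 0.0569 to 0.798). Hoxa9, known for its role in blood progenitors and leukaemia, had 0 and 0 counts in KO, against 3 and 4 in WT. Hoxc9 had 0 and 0 counts in KO, against 3 and 3 in WT. With KO set to a floor of 3 counts over the group, WT stood 3.22-fold higher for Hoxa9 and 2.76-fold higher for Hoxc9. These folds take the WT counts as exact and are not lower bounds. When no filter was applied, neither gene was called (edgeR adjusted p = 0.102 and 0.147). Hoxb13, a gene of the hindgut and prostate, had 6 counts in WT 1 and 0 in KO 1, KO 2 and WT 2. Hoxa10 had 0 counts in KO and 3 in WT, and Hoxd10 had 0 in KO and 1 in WT. Hoxa11, Hoxa13, Hoxc10, Hoxc11, Hoxc12, Hoxc13, Hoxd11, Hoxd12 and Hoxd13, and the anterior genes Hoxb1 and Hoxd1, had 0 counts in all 4 libraries, which allows levels up to the floors given above.

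Other genes under the filter also had a lower pooled CPM in KO. Hoxc4 had 4 and 2 counts in KO, against 9 and 5 in WT, Hoxb3 2 and 5 in KO, against 10 and 6 in WT, and Hoxa6 1 and 1 in KO, against 1 and 7 in WT. Hoxb2 had 1 and 2 counts in KO, against 4 and 3 in WT, and Hoxc5 1 and 1 in KO, against 5 and 3 in WT. Hoxb3 and Hoxb2 share 52.9% and 27.3% of their exon bases with the antisense Hoxb3os, and whether strand was used in counting is not given. Hoxd3 and Hoxd4 had 0 counts in KO and 1 and 3 in WT 1, with 0 in WT 2, and 62.8% and 52.3% of their exon bases are shared with other models.

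Summed over the members, HOX genes stood at 36.2 and 32.9 CPM in KO 1 and KO 2 (180 and 203 counts), against 83.0 and 59.3 CPM in WT 1 and WT 2 (302 and 264 counts). By cluster, the log2 ratio of the mean sums, KO over WT, was -0.58 for Hoxa, -1.17 for Hoxb, -2.26 for Hoxc and -1.87 for Hoxd. In each cluster both KO sums lay below both WT sums, for example 2.01 and 1.94 CPM in KO, against 11.8 and 7.19 CPM in WT, for Hoxc. Hoxd rested partly on WT 1 and was -1.25 without it. By paralogue number the log2 ratio was -0.66 for genes 1 to 3, -0.97 for genes 4 to 8 and -3.54 for genes 9 to 13. The posterior sum was 2 and 5 counts in KO, against 35 and 20 in WT (0.402 and 0.809 CPM in KO, 9.62 and 4.5 CPM in WT). Its log2 ratio was -2.89 without WT 1 and -4.13 without KO 2. The sum in KO 1 lay under the floor of 0.604 CPM, so the size of this ratio is uncertain. Sums over members are descriptions and were not tested.

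**Figure D3:**
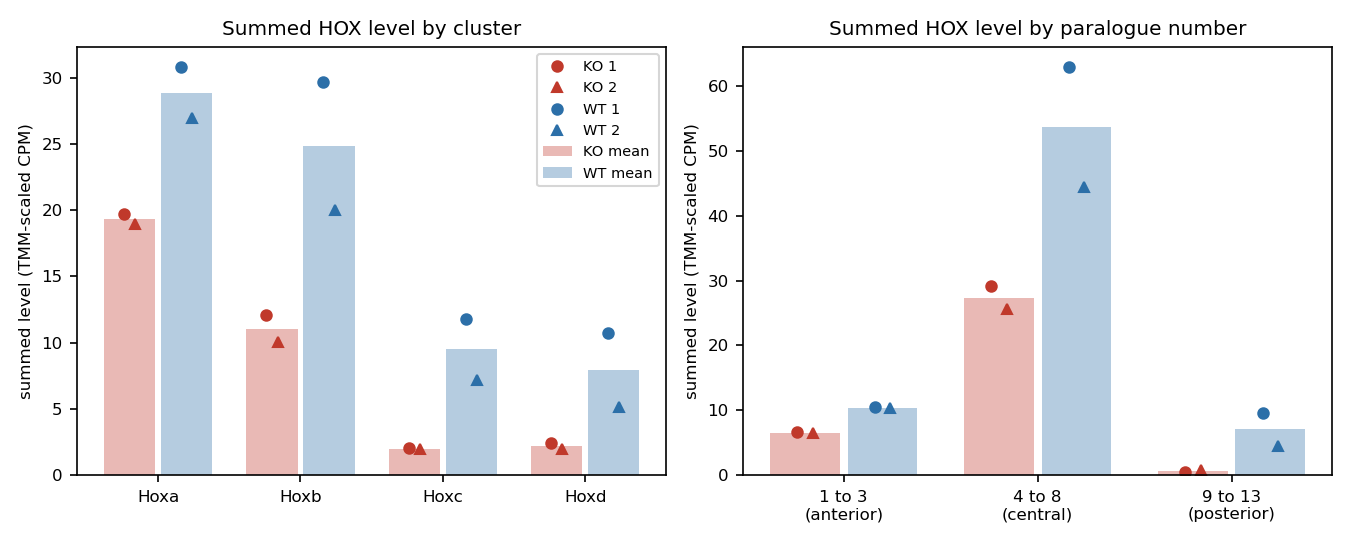
Summed HOX level in TMM-scaled CPM (vertical axis) by cluster (left) and by class of paralogue number (right), with bars for the mean of KO (red) and WT (blue) and points for each library. In each cluster and in each of the 3 classes of paralogue numbers (1 to 3, 4 to 8, 9 to 13) the KO points lie below both WT points, and the sum of genes 9 to 13 is 0.402 and 0.809 CPM in KO, against 9.62 and 4.5 CPM in WT.

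Lists of cofactors and regulators of HOX genes had many more reads. With the mesenchymal factors described at the end, 31 of their 67 tested genes changed, beside the 42.2% of all genes tested, of which 22.0% were higher and 20.2% lower. All 9 TALE genes were tested, of which 2 rose and 1 fell, with a median log2 change of 0.56. With upper quartile scaling, or without WT 1, WT 2 or KO 2, 1 rose, and without WT 1, WT 2 or KO 1, 0 fell. Pbx3, a HOX partner, was at 27.6 and 35.8 CPM in KO, against 14.6 and 8.54 CPM in WT (log2 change 1.47, edgeR adjusted p = 0.00567). Pknox1 was at 19.7 and 23.1 CPM in KO, against 36.8 and 35.1 CPM in WT (-0.74, edgeR adjusted p = 0.0228). For both genes the groups did not overlap. Pknox1 no longer passed when WT 1, WT 2 or KO 1 was left out, with edgeR adjusted p-values of 0.0977, 0.0706 and 0.102. Of those that did not pass, the log2 changes were -0.32 for Pbx2, 1.04 for Pbx4, -0.03 for Meis1, 0.56 for Meis2, 0.63 for Meis3 and -0.09 for Pknox2.

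Of 19 Polycomb genes, 5 rose and 5 fell (median -0.29), close to the 22.0% higher and 20.2% lower over all genes tested. Pcgf2 and Phc2, subunits of Polycomb complex PRC1, rose with log2 changes of 1.86 and 0.90 (edgeR adjusted p = 0.00147 and 0.00267), and Cbx7 and Phc3, of the same complex, fell, with log2 changes of -1.58 and -1.16 (edgeR adjusted p = 0.00591 and 0.00206). Cbx7 was at 10.3 and 21.2 CPM in KO, against 48.4 and 46.7 CPM in WT. The H3K27 methyltransferase Ezh2, at 26.2 and 30.9 CPM in KO, against 40.7 and 33.7 CPM in WT, did not pass (edgeR adjusted p = 0.195). The number of Polycomb genes called higher was 2 with upper quartile scaling or without WT 1 and 3 without WT 2, without KO 2 or with DESeq2, and 3 were called lower without WT 2 or without KO 2.

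Of 13 trithorax group and H3K27 demethylase genes, 0 rose and 5 fell (median -0.37), beside 22.0% higher and 20.2% lower over all genes, with 3 higher at an unadjusted p under 0.05 in edgeR and 0 higher by DESeq2. Kmt2a, the H3K4 methyltransferase known for keeping HOX genes active, was at 180 and 147 CPM in KO, against 338 and 436 CPM in WT (log2 change -1.25, edgeR adjusted p = 0.00116). Kmt2c was at 124 and 110 CPM in KO, against 251 and 312 CPM in WT (-1.27, edgeR adjusted p = 0.000714). For both genes the groups did not overlap. With library totals alone, without WT 2 or without KO 1, 1 gene of this list was called higher, and with no filter on low counts 3 were.

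Of 15 tested retinoic acid genes of 19, 7 rose and 0 fell (median 0.75), beside 22.0% higher and 20.2% lower over all genes. In this list 0 fell at an unadjusted p under 0.05 and DESeq2 called 1 lower. The retinol dehydrogenase Rdh10, which makes retinal, was at 88.3 and 134 CPM in KO, against 17.9 and 10.1 CPM in WT (log2 change 3.0, edgeR adjusted p = 0.000496). Without WT 2 or without KO 2, 4 genes rose, and 1 fell without WT 2 or with the filter of at least 1 CPM in 2 libraries. The fibroblast and stellate list had higher sums in the same libraries, and its part was not tested. Of the 8 ParaHox and EVX genes only Pdx1 passed the filter, at 5.03 and 13.3 CPM in KO, against 3.85 and 8.77 CPM in WT (log2 change 0.53, edgeR adjusted p = 0.486), and the HOX-linked Evx1 and Evx2 had 0 counts in every library.

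**Figure D4:**
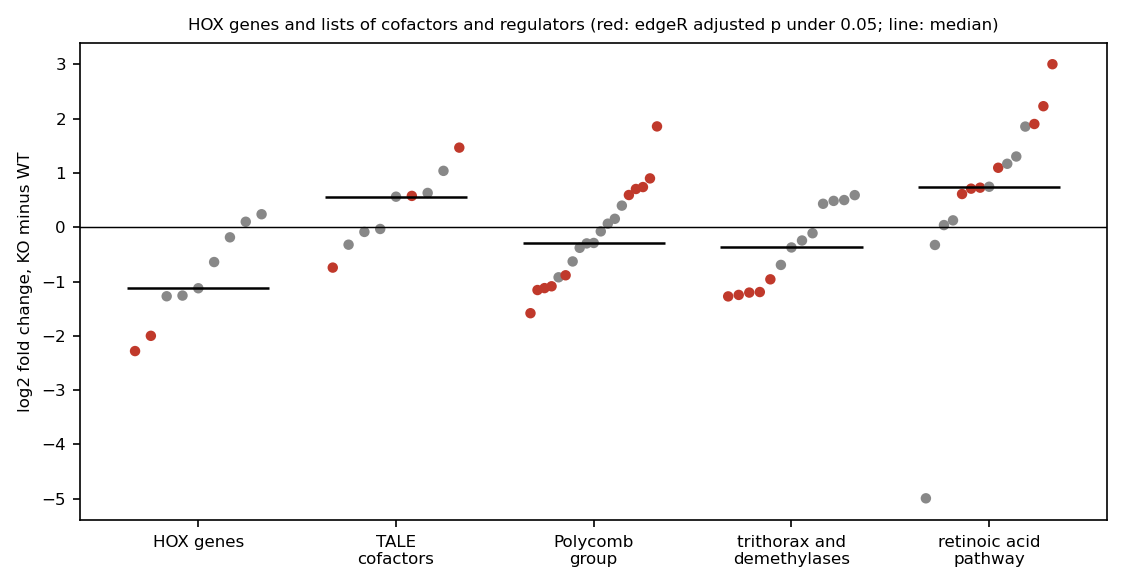
Log2 fold change, KO minus WT (vertical axis), of tested genes in the HOX clusters and in 4 lists of cofactors and regulators (horizontal axis), with 1 point per gene, red for an adjusted p under 0.05, and a line at the median. The medians are -1.12 for HOX genes, 0.56 for TALE cofactors, -0.29 for Polycomb, -0.37 for trithorax and 0.75 for retinoic acid genes. In 5 of the 9 HOX genes both WT libraries, but not both KO libraries, reached the filter on low counts. The HOX median therefore leans towards lower values in KO.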

How the data were processed

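Per the labels' protocols, total RNA went into a stranded SMARTer library kit. The authors deposited whole-number read counts for each gene model and library, with no normalization. Per the submitters' processing notes the build was mm10 and TopHat and edgeR were used. Which program and annotation gave the counts, whether strand was used and how reads matching several genes were handled is not given in the sources used here. Model starts count from 0 in the files and are given from 1, and all 39 HOX models equal those of GENCODE M21.

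All 4 libraries entered 1 fit with genotype as the only term: filterByExpr, TMM scaling and edgeR 4.0.16 (glmQLFit, robust, and glmQLFTest) in R 4.3.3, with Benjamini-Hochberg adjustment over 13990 genes and a threshold of 0.05. Errors beside log2 changes are SEs of the fit. DESeq2 1.42.0, other scalings and filters, a replicate block and leaving out each library were alternatives. The procedure was tested on simulated data. HOX members, gene lists and tests were chosen with earlier results of these data known. All HOX genes enter the counts and sums and are named, and of each regulator list the 2 largest rises and falls past the threshold and all TALE genes are named, except for a few genes not reported here by name, with a few others (Ezh2, Pdx1, Evx1, Evx2) chosen after their values were seen. Replicates differed by more than sampling noise (chi-square per degree of freedom 13.5 in KO and 14.2 in WT).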

Additional observations from a re-analysis of the deposited data

How the results depend on the processing

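No HOX gene was called higher under any of the 11 alternatives, and none was at an unadjusted p under 0.05 in that direction in edgeR or DESeq2. With all libraries 2 HOX genes were called lower, 1 with the DESeq2 test, 3 each with upper quartile scaling, no filter or the 1 CPM filter, and 0 to 3 when 1 library was left out (0 without WT 1 or KO 2, with 3 and 2 at an unadjusted p under 0.05). The median log2 change of the tested HOX genes was -1.96 with no filter on low counts and -2.0 to -1.10 when 1 library was left out, where up to 15 HOX genes were tested. Leaving out 1 library gave log2 ratios of summed counts of -0.67 to -0.48 for Hoxa, -1.42 to -0.86 for Hoxb, -2.58 to -1.86 for Hoxc and -2.30 to -1.25 for Hoxd, and of -0.68 to -0.65, -1.20 to -0.70 and -4.13 to -2.89 for genes 1 to 3, 4 to 8 and 9 to 13. Upper quartile scaling, which moved the median of all genes to -0.20, gave -0.78 for Hoxa and -0.86 for genes 1 to 3, and library totals alone gave -0.63 for genes 1 to 3. Over all genes, 1867 to 2276 were called lower when 1 library was left out, against 2832 with all. Among the HOX genes named, 90 of the tested changes kept their side of the threshold under an alternative, 8 no longer passed and 1 came to pass. The sample titles give replicate numbers but do not say that libraries of the same number are paired. The correlation of deviations, 0.04 over genes, cannot settle it. With the replicate block 2 HOX genes were called lower and 6656 genes changed (22.8% of genes tested lower), against 5909 without it. With that block 3 trithorax group genes were called higher, against 0. The cause of these shifts was not tested. At these depths most HOX genes have too few reads for a test.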

Other observations

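The HOX intervals hold 46 other gene models, of which 13 had counts and none passed the filter. Hoxaas2, antisense to the Hoxa3 region, had 1 and 3 counts in KO, against 11 and 7 in WT, and the noncoding RNA Hotairm1 had 9 and 4 counts in KO, against 3 and 2 in WT. In CPM the groups did not overlap for Hoxaas2 and did overlap for Hotairm1. They also did not overlap for Hoxb3os, higher in KO with 4 and 3 counts, against 1 and 0 in WT. Gm53 of the Hoxb interval, with 0 and 0 counts in KO, against 2 and 2 in WT, was lower without overlap. Hotair, Haglr and the 6 microRNA models in the intervals (among them Mir10a and Mir10b) had 0 counts in all libraries. For the short microRNA models this does not show that the microRNAs were absent. These models were picked after their counts were seen.

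Of 14 transcription factors of pancreatic mesenchyme 10 were tested, of which 5 rose and 1 fell (median log2 change 1.06), beside 22.0% higher and 20.2% lower over all genes tested. Wt1 was at 20.3 and 12.6 CPM in KO, against 3.57 and 0.674 CPM in WT (log2 change 3.0, edgeR adjusted p = 0.00693), and Barx1 at 7.65 and 4.69 CPM in KO, against 1.10 and 0.899 CPM in WT (2.60, edgeR adjusted p = 0.007). Without KO 1 neither passed (edgeR adjusted p = 0.0813 and 0.0992), and 2 genes of the list rose. Hand2 was at 26.6 and 20.6 CPM in KO, against 41.5 and 35.1 CPM in WT (-0.70, edgeR adjusted p = 0.0375). Leaving out WT 1, WT 2 or KO 2 lost the call (edgeR, adjusted p = 0.179, 0.0578 and 0.192), as did DESeq2 (adjusted p = 0.0773). Nkx3-2, a factor of the mesenchyme around stomach and pancreas, had 2 and 0 counts in KO, against 10 and 3 in WT, and was under the filter. It was named after its counts were seen.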
